A study of Gallus gallus with 6 samples.

Results

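Ribosomal proteins and translation factors were followed through the response of chicken macrophages to bacteria. The genes were chosen by name, as all genes of the probe annotation whose symbol begins with RPL, RPS, RPLP, EIF or EEF, without the RPS6K kinases, and 76 of the 2253 named genes met this rule. Grouped by symbol alone, they were 34 genes of the large (60S) ribosomal subunit and 21 of the small (40S) subunit. The others were 18 initiation factor genes and 3 elongation factor genes, and all were read on 297 spots. The large subunit group thus holds the RPL7-like RPL7L1, and the initiation group the kinase EIF2AK4. The rule reads symbols and no measured value, but it was set with earlier results of these data known.

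The cells were macrophages grown from peripheral blood lymphocyte preparations of chickens and given either whole E. coli of the XL10 strain or LPS from S. typh, a glycolipid of the outer membrane of Gram-negative bacteria. Both stimuli were withdrawn after 2 h in the series sampled later. Of 6 spotted cDNA arrays, 5 compared a pair of RNA samples: the early E. coli array (1 h of E. coli, unstimulated cells), the early LPS array (unstimulated cells, 1 h of LPS), the time array (E. coli at 2 h and at 4 h), and the 4 h array and the 8 h array (each E. coli and LPS). The remaining array gave the brightness of LPS 2 h alone, and the age and line of the birds or pooling of RNA is not given in the sources used here.

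With 1 array per comparison nothing could be tested, and precision is limited by the number of arrays. A ratio is a log2 value (base 2 assumed) with the array's median subtracted, and each ± is the SD over a gene's spots on 1 array, which holds technical spread and differences between clones only. A gene counted as past 2-fold at a log2 ratio of 1 or more in size. The numerator is not stated in the sources used here, so signs are as deposited and would turn together if an array ran the other way. By the channels of the labels, the stimulated sample came first on the early E. coli array and second on the early LPS array, but the title of the early E. coli array names the control first, so what a sign means there is not settled. The chemokine gene CCL20 had 6.003 on the early E. coli array and -6.46 on the early LPS array. In whole-cell RNA, fewer cells of a type and less RNA per cell cannot be told apart. Near-identical copies can share a cDNA spot, so values of RPL39L, RPL26L1 and RPS4Y1, which the gene table also lists as RPL39, RPL26 and RPS4X, are uncertain in that respect, as is RPSAP58, listed there also as RPSA.

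A ribosome joins a small subunit, which reads the messenger RNA, to a large subunit, which links amino acids. Initiation factors load the small subunit and the first transfer RNA onto a messenger, and elongation factors feed in further transfer RNAs and move the ribosome along. In vertebrates the messengers of ribosomal proteins and of several translation factors begin with a run of pyrimidines and are controlled together, largely at translation through the TOR kinase, so cells can change their use without a change in their level. In activated macrophages translation is known to be redirected within hours towards messengers of the inflammatory response.

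At LPS 2 h these genes were bright. Their median intensity was 0.934 in the authors' units against 0.509 for all 2253 genes, and 30 of the 76 were in the brightest 25% of genes and 4 in the dimmest 25%. EEF1A1, which delivers transfer RNAs to the ribosome, had 7.42 ± 0.467 over 3 spots. RPL7, a large subunit protein, had 5.07 ± 4.37 over 9 spots of 3 clones. EIF3G, a subunit of the scaffold factor eIF3, had 4.66 ± 0.372. At the other end stood EIF2AK4, the kinase GCN2 that senses uncharged transfer RNA, at 0.0452 ± 0.0658, followed by EIF2S3, the GTP-binding subunit of eIF2, at 0.118 ± 0.0902. RPS23 had 0.1455 ± 0.0345 and EIF1AX, a scanning factor, 0.166 ± 0.0517. These 4 genes made up all the members in the dimmest 25%. Brightness depends on the clone as well as on the transcript, so the order is not one of expression.

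**Figure D1:**
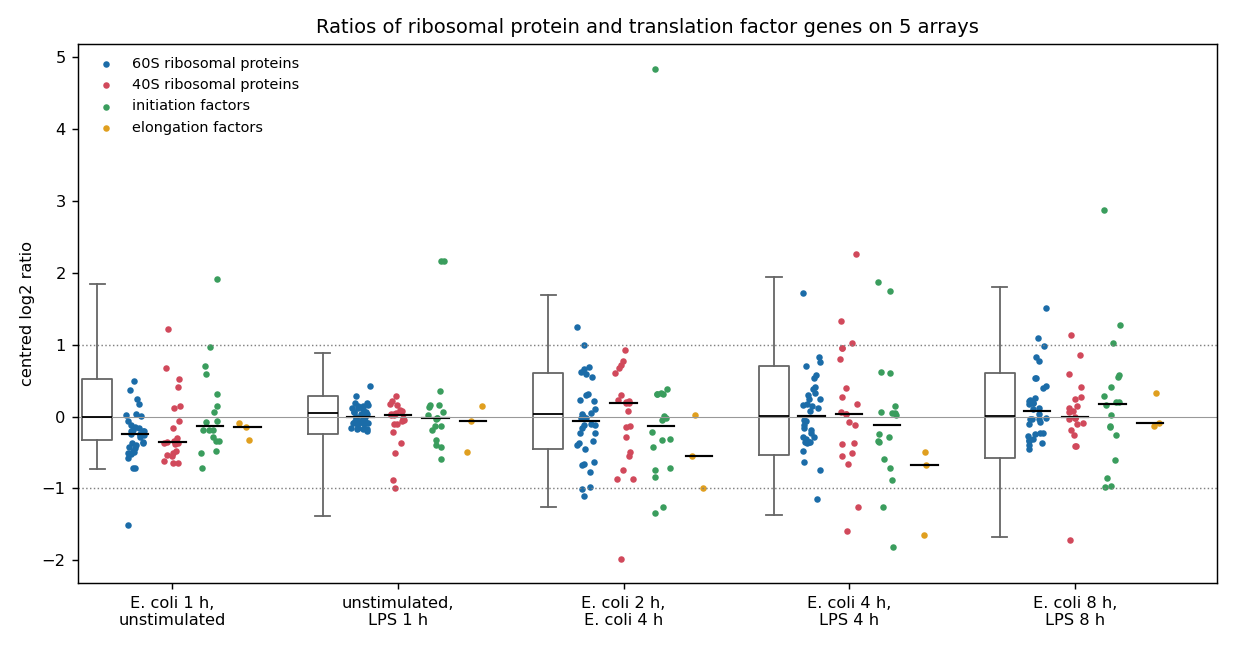
Centred log2 ratio (vertical axis) of each gene on the 5 ratio arrays, by group, with a bar at each group's median. Boxes show all named genes (quartiles, median, whiskers from the 5th to the 95th percentile), and dotted lines mark 2-fold. Ribosomal proteins sit in a narrow band on the early LPS array, and the points beyond 2-fold are few on both early arrays.

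Ribosomal protein ratios were bunched on 3 of the 5 arrays, by a band of 0.5 that was chosen after the values were seen. On the early LPS array, 94.5% of the 55 ribosomal protein genes lay within 0.5 of the centre on the log2 scale, against 72.2% of all named genes. At 8 h the shares were 80.0% and 43.6%, at 4 h 63.6% and 43.0%, on the time array 56.4% and 48.0%, and on the early E. coli array 72.7% and 60.4%. Dim genes scatter more, and among all genes outside the dimmest 25% the shares within 0.5 were 77.4% on the early LPS array, 47.9% at 8 h, 47.3% at 4 h, 53.3% on the time array and 69.3% on the early E. coli array. By this band the ribosomal proteins were thus close to this background on the time array and the early E. coli array. The band lies around the array's centre, while their median on the early E. coli array was -0.28. Their SD between genes was 0.61 on the time array and 0.42 on the early E. coli array. For all genes outside the dimmest 25% it was 0.80 and 0.67, so by this measure they were closer together there too. The 34 large subunit genes on the early LPS array had an SD between genes of 0.15, while all 2251 genes there had 0.78. The median SD between spots of 1 large subunit gene was 0.16, and 0.08 once each of 3 parts of the spot order was centred. At 4 h the small subunit genes had an SD of 0.89, beside 0.53 for the large subunit, with median spot SDs of 0.58 and 0.51. Of the small subunit genes, RPS25 (2.26 ± 2.11), the dim RPS23 (-1.59 ± 2.66) and RPS3 (1.03 ± 1.94) had spots of both signs there. Without RPS3 the SD was 0.88, and without RPS25 and RPS23 it was not computed, so it cannot be read as a difference between the subunits.

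Few members were past 2-fold, and with centred ratios fewer in share than among all genes on each array. The early E. coli array had 3 of 76 (3.95%), beside 16.3% of all genes. Of these, 2 were positive, beside 14.7% of all genes, and 1 negative, beside 1.51%. The early LPS array also had 3, beside 11.2%, with 2 positive (background 3.78%) and 1 negative (background 7.37%). With the trend removed these early splits were 1 and 1, and 2 and 0, beside 234 and 89, and 64 and 172, of all 2251 genes. The positive share on the early LPS array was then close to that of all genes. The time array had 7 (9.21%), beside 23.1%, with 2 positive (background 14.8%) and 5 negative (background 8.3%). Without centring 13 were positive and 1 negative, while removal of the brightness trend gave 3 on either side, beside 242 and 217 of all 2252 genes. At 4 h there were 12 (15.8%), beside 29.4%, with 6 positive (background 17.7%) and 6 negative (background 11.7%). With the trend removed they were 9 and 4, beside 275 and 221 of all 2248 genes, so the positive share was close to that of all genes. At 8 h there were 7 (9.21%), beside 27.9%, with 6 positive (background 15%) and 1 negative (background 12.9%), and 2 and 2 with the median over spots. With the trend removed the 8 h split was 7 and 2, beside 247 and 319 of all 2220 genes, so the positive share was close to that of all genes. The 4 positive members outside the dimmest 25% at 8 h were EIF5 (1.02 ± 1.38), RPL13, RPL22 and RPS3, each with spots of both signs. Shares of all genes without centring and with the median over spots were not computed. The dim genes EIF1AX, EIF2AK4, EIF2S3 and RPS23 supplied 2 of the 3 on each early array, none on the time array, 4 of the 12 at 4 h and 2 of the 7 at 8 h. With the dimmest 25% of genes left out, the background was 8.11%, 9.11%, 17.8%, 23.8% and 23% in the same order of arrays, and the members had 1, 1, 7, 8 and 5 of 72. Every member was read on all 5 arrays, though EIF5B and EIF1AX had 1 spot on the time array, and EIF3G 1 spot at 8 h.

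On the early E. coli array, most ribosomal proteins lay slightly to the negative side. The median ratio was -0.25 for the 34 large subunit genes and -0.35 for the 21 small subunit genes, against -0.01 for all genes. For 33 of the 55 (60%) every spot was negative and for 6 (10.9%) every spot was positive, where 31.2% and 29.4% of all genes with at least 2 spots were so. Among the 1689 genes outside the dimmest 25%, 631 had only negative and 360 only positive spots. The ratio moved with brightness on this array, from a median of 1.00 in the dimmest 10% of genes to -0.22 in the brightest 10%. After a running median over brightness was subtracted, the large subunit genes had a median of -0.08 and the small subunit genes -0.20. Markers of macrophages lay further to the same side, with a median of -0.49 and 11 of 14 negative. The 3 genes measured from the B cell list had a median of -0.69 with all spots negative. Of these, CD72L1 and SH2D6 were matched by synonyms of listed genes. The part of these marker lists in the ribosomal protein ratios was not tested.

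**Figure D2:**
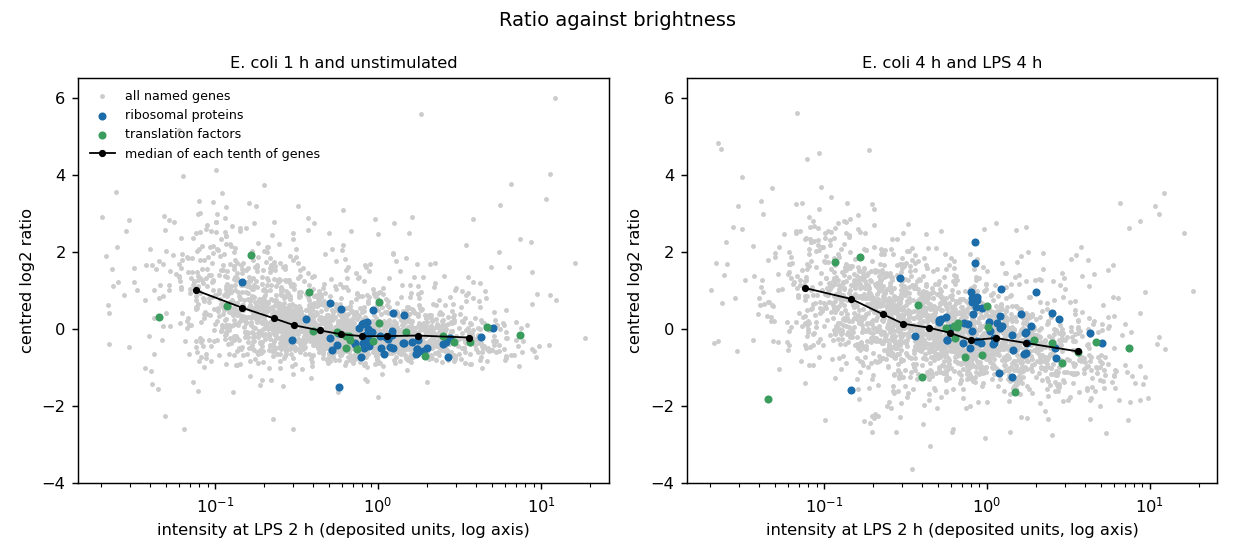
Centred log2 ratio (vertical axis) against the intensity at LPS 2 h (log axis, deposited units) on 2 arrays, with all named genes in grey, ribosomal proteins in blue, translation factors in green and the median of each 10% of genes as a black line. The line runs from 1.00 to -0.22 on the early E. coli array and from 1.06 to -0.58 at 4 h, and 24 genes with an intensity of 0.02 or less are not drawn.

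Among large subunit genes on the early E. coli array, RPL10A had -0.72 ± 0.15 and RPL19 -0.72 ± 0.11. RPLP0, the base of the stalk that recruits elongation factors, had -0.58 ± 0.11. RPL3, near the peptide-forming centre, had -0.52 ± 0.10. All of these had 3 negative spots. RPL38, a small protein needed for the translation of certain developmental messengers in mice, went the other way at 0.49 ± 0.12, as did RPL35 at 0.37 ± 0.19 and RPL35A at 0.18 ± 0.13 over 9 spots of 3 clones. RPL7L1, an RPL7-like protein known in mammals for ribosome assembly, had the lowest value of any member, -1.52 ± 0.92. Its 3 spots read -1.41, -2.48 and -0.66, so its size is loosely fixed.

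Small subunit genes divided in the same way. RPS7 had -0.65 ± 0.10, RPS13 -0.61 ± 0.16 on 2 spots and RPS6, the target of the S6 kinases, -0.53 ± 0.04. RPS27A, which is made as a fusion with ubiquitin, had -0.65 ± 0.37 over 6 spots. RPS29 stood at 0.67 ± 0.54, RPS20 at 0.52 ± 0.29 and RPS21 at 0.12 ± 0.12, each with 3 positive spots. RPS23 had 1.22 ± 1.09 on a dim clone, and its spots did not share 1 sign.

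**Figure D3:**
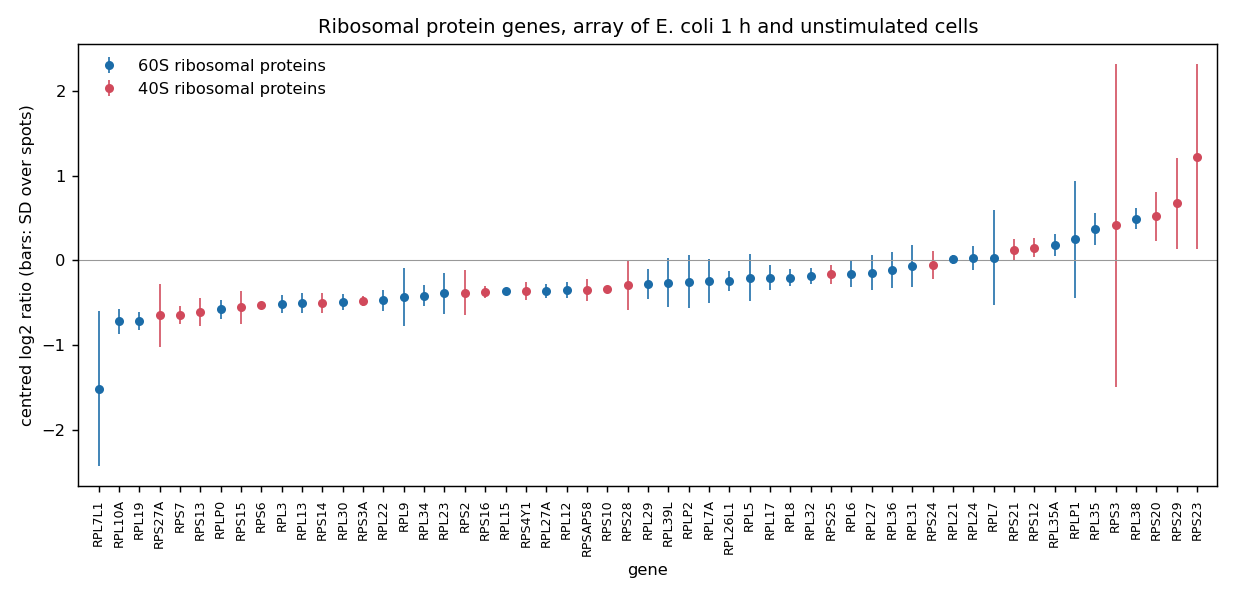
Centred log2 ratio on the early E. coli array for the 55 ribosomal protein genes in order of ratio, with bars for the SD over spots. RPL10A and RPL19 are at -0.72 with small bars and RPL38 is at 0.49, while RPL7L1, RPS3 and RPS23 have the widest bars.

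On the early LPS array the ribosomal proteins were close to the centre, with a median of -0.01 for the large subunit and 0.02 for the small one, beside 0.05 for all genes. All spots were positive for 14.5% and negative for 16.4% of the 55, where 26.8% and 22.4% of all genes were so. The early arrays share the unstimulated RNA. RPL19 had 0.29 ± 0.15 and RPLP0 0.18 ± 0.22, both with all spots positive. RPL38 had -0.17 ± 0.26 and RPS29 0.16 ± 0.24, within the spread of their spots. Apart from RPS3, the member farthest from 0 among ribosomal proteins was RPS13 at -0.89 ± 0.25 with 3 negative spots. RPS28 followed at -0.51 ± 0.19. The stalk protein RPLP1 had the highest value, 0.42 ± 0.40 over 6 spots.

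RPS3, which lines the messenger entry channel of the small subunit and in human cells also associates with NF-kB, was read by 2 clones that differed. The brighter clone, with an intensity of 2.45, had spots of 1.86, 2.06 and 2.22 on the early E. coli array. On the early LPS array they read -3.002, -2.76 and -2.54. This clone thus lay past 2-fold on both early arrays, with spot SDs of 0.18 and 0.23 and with the signs that CCL20 had there. On the time array it had -1.85 ± 0.12, at 4 h 2.74 ± 0.20 and at 8 h -0.16 ± 0.32. The dimmer clone, at an intensity of 0.0095, had -1.22 ± 1.00 on the early E. coli array and a single spot of 0.76 on the early LPS array. It was near the bottom of the brightness range, and between 1 and 3 of its spots were read on each array. The gene's mean over both clones was 0.41 ± 1.90 on the early E. coli array and -1.001 ± 1.78 on the early LPS array, and it describes neither clone. The dimmer clone's spots had intensities of 0.028, 0.0266 and -0.0261, so its ratios rest on signal at or near 0. Whether both clones hold RPS3 was not tested.

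**Figure D4:**
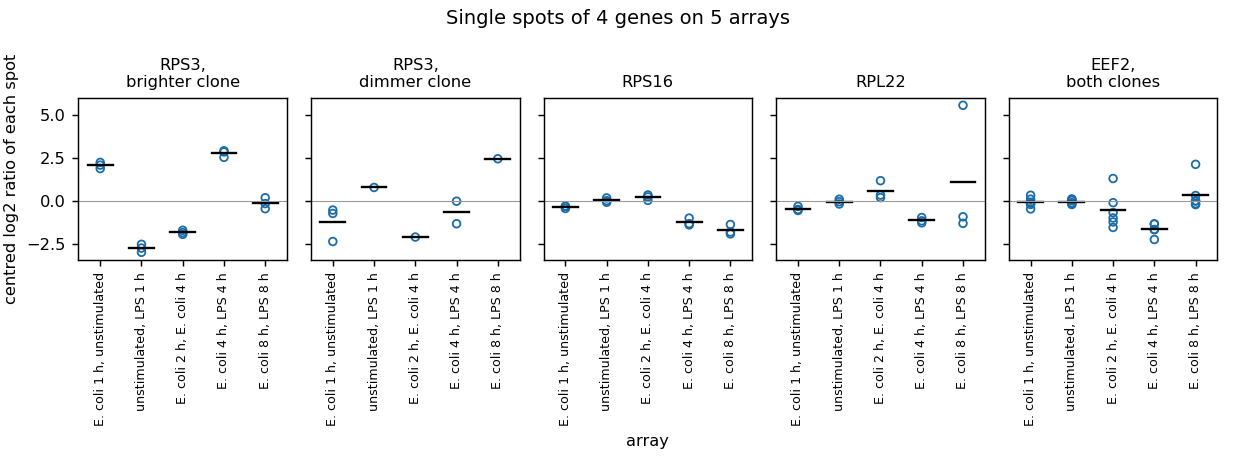
Centred log2 ratio of each spot (circles, bars at the mean) on the 5 arrays for the RPS3 clones apart, RPS16, RPL22 and EEF2. The brighter RPS3 clone is at 2.05 on the early E. coli array and at -2.77 on the early LPS array, where the labels put the stimulated sample in the opposite channel, while RPS16 departs from 0 at 4 h and 8 h.

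RPL7 clones differed too. Its brightest clone, at an intensity of 9.59, had -0.39 ± 0.09 on the early E. coli array, and the second, at 5.01, had -0.28 ± 0.11. The third, at 0.597, had 0.76 ± 0.14. On the time array they had -0.01 ± 0.12, -0.43 ± 0.32 and 0.75 ± 0.04, and at 4 h -1.18 ± 0.29, -0.56 ± 0.45 and 0.68 ± 0.80. The third clone was thus the highest of the 3 on each of these arrays. On the early LPS array all 3 clones were between -0.42 and -0.03. By contrast the clones of EIF4G2 had -0.35 ± 0.12 and -0.34 ± 0.26 on the early E. coli array, and those of RPL27A -0.41 ± 0.02 and -0.32 ± 0.10. Over the 20 members with several clones, the median gap was smallest on the early LPS array, at 0.18, and largest at 4 h, at 0.96.

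On the time array the ribosomal proteins as a whole were near the centre, with genes of both subunits on either side. The median was -0.06 for the large and 0.18 for the small subunit, beside 0.04 for all genes, and without centring it was 0.43 and 0.68. RPL23, known in mammals also to bind the p53 regulator MDM2, had -1.10 ± 0.38 over 6 spots, and its clones had -1.38 ± 0.05 and -0.82 ± 0.36. RPL7A had -1.003 ± 0.66, RPL10A -0.67 ± 0.13, RPL3 -0.66 ± 0.10 and RPLP0 -0.63 ± 0.49. Among small subunit genes RPS10 had -0.88 ± 0.19, RPS27A -0.87 ± 0.21 and RPS6 -0.49 ± 0.25. On the other side RPS29 had 0.92 ± 0.34, RPL38 1.00 ± 0.45 (just under the 2-fold mark), RPS24 0.71 ± 0.36 and RPS21 0.60 ± 0.34. All genes in this list had spots of 1 sign. Over the alternatives RPL23 came as near to 0 as -0.61 and RPL7A as near as -0.51, both under 2-fold. Of the 55 ribosomal proteins, 18 had spots of 1 sign both here and on the early E. coli array, which share no RNA sample. RPL38, RPS29 and RPS21 made up the 3 that were positive on both, and 12 were negative on both, RPL10A, RPL3, RPLP0, RPS6 and RPS27A among them. The other 3 had opposite signs, and these were RPL27A at -0.36 ± 0.08 and 0.59 ± 0.39, RPL22 at -0.47 ± 0.13 and 0.55 ± 0.53 and RPS16 at -0.37 ± 0.07 and 0.19 ± 0.16, early array first. Of all genes with at least 2 spots, 29.4% had only positive and 31.2% only negative spots on the early E. coli array. On the time array these shares were 22.9% and 23.3%. Outside the dimmest 25% of genes, 360 had only positive and 631 only negative spots of 1689 on the early E. coli array. On the time array they were 286 and 451 of 1690. Of the 55 themselves, 6 had only positive and 33 only negative spots on the early E. coli array, and 10 and 15 on the time array. The tally over both arrays was not made for all genes, so its counts cannot be read as high or low. The signs in this tally rest on the centring, since the time array's deposited median of 0.49 was subtracted. Across the 55 ribosomal proteins the ratios of the 2 arrays had a Pearson's r of 0.36 (Spearman's rho 0.43), and 0.27 after the brightness trend was removed. Across all 2250 genes read on both r was 0.26 (0.17 after the trend was removed), and the points share their clones and brightness.

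The same ratios ran against those at 8 h, with an r of -0.44 across the 55 ribosomal proteins (-0.48 after the trend was removed). Across all 2219 genes r was -0.01 (-0.11 after the trend was removed). RPL23 had 0.77 ± 0.20 at 8 h with 6 positive spots, and RPS10 0.41 ± 0.32. RPL38 had -0.07 ± 0.41 and RPS29 -0.01 ± 0.29 at 8 h, within the spread of their spots. These 2 arrays were among 8 pairs without a shared RNA sample, and r across ribosomal proteins ranged from -0.44 to 0.37 over them. Spearman's rho was -0.49 for the pair with the lowest r. For the pair with the highest, the early LPS and time arrays, it was 0.27. RPS3 entered as the mean of its 2 clones, and its effect on these values was not tested.

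At 4 h, E. coli against LPS, the medians were 0.01 for the large and 0.04 for the small subunit, and at 8 h 0.07 and -0.0046. Because bright genes lay on the negative side at 4 h, removal of the trend put the medians at 0.37 and 0.23 for 4 h and at 0.18 and 0.14 for 8 h. RPS16, whose tail reaches the transfer RNA in the decoding site, had the ratio farthest from 0 among members with 3 concordant spots outside the dim genes at 8 h. Its spots were -1.34, -1.41 and -1.02 at 4 h and -1.82, -1.93 and -1.39 at 8 h, and its means were -1.26 ± 0.21 and -1.72 ± 0.29. Over the alternatives its 4 h ratio came as near to 0 as -0.89, under 2-fold, and its 8 h ratio as near as -1.59. On the other arrays it had -0.37 ± 0.07 on the early E. coli array, 0.02 ± 0.13 on the early LPS array and 0.19 ± 0.16 on the time array. It was the only member with all spots negative and a ratio past 2-fold on both arrays of E. coli and LPS. Markers of macrophages lay on the same side, with 10 of 14 past 2-fold and negative at 4 h and 10 at 8 h and medians of -1.14 and -1.31, and their part in the RPS16 ratio was not tested.

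RPL22, an RNA-binding protein of the large subunit, had spots of -1.17, -1.29 and -0.98 at 4 h. At 8 h its spots were -1.32, -0.94 and 5.54, so the mean of 1.09 ± 3.85 rests on 1 spot. RPS28 had 1.32 ± 0.82 at 4 h with 3 positive spots and -0.10 ± 0.15 at 8 h. RPS25 and RPL27 had large means at 4 h, 2.26 ± 2.11 and 1.72 ± 2.95, with spots of both signs. RPL19 had -0.74 ± 0.20 and RPS7 -0.38 ± 0.27, with all spots negative, and RPL21 0.76 ± 0.36 and RPLP2 0.83 ± 0.34, with all spots positive. At 8 h RPL15 had 0.53 ± 0.26 and RPS13 0.59 ± 0.38, both with 3 positive spots. RPL13 had 1.51 ± 2.38 there, with spots that disagreed in sign.

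**Figure D5:**
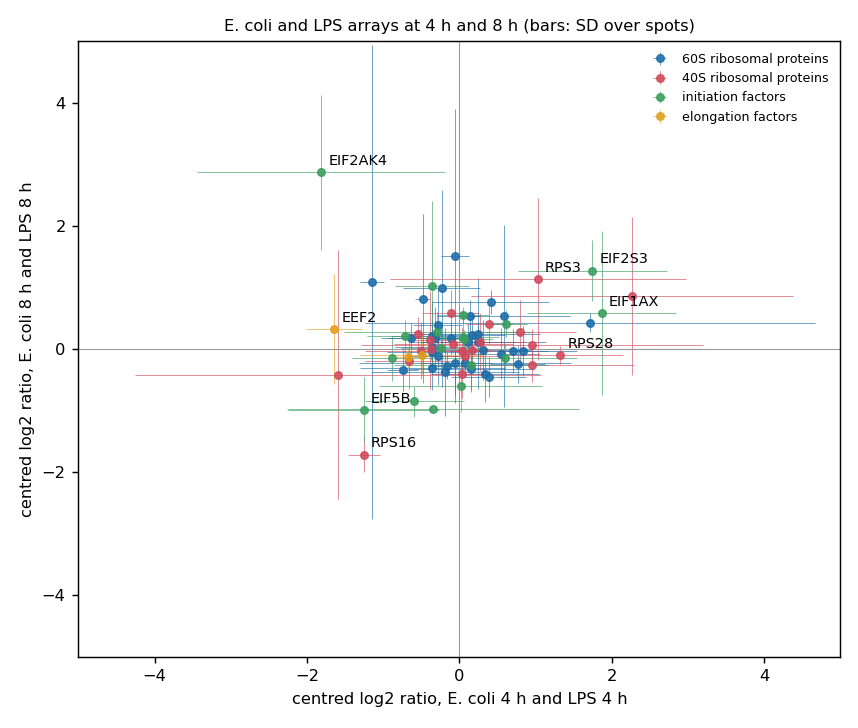
Centred log2 ratio at 4 h (horizontal axis) and at 8 h (vertical axis) of E. coli and LPS for the 76 genes, with bars for the SD over spots. RPS16 is low on both axes, EIF2AK4 is low at 4 h and high at 8 h with wide bars, and most genes sit near the centre.

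The 18 initiation factor genes had an SD between genes of 0.64, 0.77, 1.32, 0.91 and 0.92 on the 5 arrays in order of time (early E. coli, early LPS, time, 4 h, 8 h), with medians of -0.13, -0.02, -0.14, -0.11 and 0.18. For the 15 outside the dimmest 25% of genes the SD was 0.44, 0.26, 1.45, 0.52 and 0.58, and on the time array 0.55 once EIF5B was left out too, both chosen after seeing the data. EIF1AX, in the dimmest 25%, had 1.91 ± 0.88 on 2 spots on the early E. coli array, 2.17 ± 2.12 on the early LPS array and 1.87 ± 0.98 at 4 h. EIF2AK4 had 2.17 ± 1.54 on 2 spots on the early LPS array, -1.82 ± 1.63 at 4 h and 2.87 ± 1.26 at 8 h. EIF5B, the GTPase that joins the subunits, had 4.84 on the only spot read on the time array, the largest ratio of any member, and -0.06 ± 0.13 on the early E. coli array, -1.26 ± 0.99 at 4 h and -0.99 ± 0.53 at 8 h.

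The subunits of eIF2, which carries the first transfer RNA, were within 2-fold except for the dim EIF2S3. EIF2S1, the subunit whose phosphorylation slows translation under stress, had 0.14 ± 0.15, -0.14 ± 0.39, -0.43 ± 0.26, 0.04 ± 0.48 and 0.20 ± 0.43 on the 5 arrays in the same order. EIF2S2 had -0.18 ± 0.16, 0.35 ± 0.12, -0.72 ± 0.12, 0.05 ± 0.34 and 0.56 ± 0.12. Its spots shared a sign on every array but that of 4 h. EIF2S3 had 0.59 ± 1.23 on the early E. coli array, 1.75 ± 0.98 at 4 h and 1.27 ± 0.49 at 8 h. With the brightness trend removed it had 0.87 at 4 h and 0.43 at 8 h, both under 2-fold.

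Of the 7 measured subunits of eIF3, the scaffold that holds the small subunit, EIF3G alone was past 2-fold, on 1 array. It had -1.26 ± 0.23 on the time array with spots of -1.4955, -1.24 and -1.04, and -0.76 without centring. On the other arrays it had 0.06 ± 0.14 on the early E. coli array, -0.33 ± 0.15 on the early LPS array, -0.34 ± 1.92 at 4 h and a single spot of -0.97 at 8 h. On the early E. coli array EIF3E and EIF3H had -0.51 ± 0.15 and -0.49 ± 0.15, while EIF3J, the loosely bound subunit, had 0.70 ± 0.32 over 6 positive spots of 2 clones. EIF3L had -0.29 ± 0.15 and EIF3F -0.19 ± 0.14, with all spots negative, and EIF3I -0.07 ± 0.32. On the early LPS array the 7 subunits were between -0.33 and 0.16.

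EIF4A2, an RNA helicase of the cap-binding complex that the gene table lists also as EIF4A1, and EIF4G2, a relative of its scaffold, had negative means on every array. EIF4A2 had -0.34 ± 0.13, -0.39 ± 0.15, -0.75 ± 0.08, -0.59 ± 0.65 and -0.85 ± 0.25 in the order above, and EIF4G2 -0.34 ± 0.18, -0.42 ± 0.14, -0.31 ± 0.21, -0.88 ± 0.53 and -0.15 ± 0.37. Both genes are bright, at intensities of 3.64 ± 0.441 for EIF4A2 and 2.91 ± 1.59 for EIF4G2, and the brightest 10% of genes had medians of -0.22, -0.21, -0.25, -0.58 and -0.38 on these arrays. EIF1, which guards the choice of the start codon, had -0.71 ± 0.21 on the early E. coli array with 3 negative spots, and lay within its spot spread on the other arrays. EIF5, which triggers GTP hydrolysis by eIF2, had -1.35 ± 0.77 on the time array, all 6 spots negative. Its brighter clone had -2.02 ± 0.10 and its dimmer one -0.67 ± 0.28. EIF5A2, of a family that eases the making of difficult peptide bonds, had 0.97 ± 1.06 on the early E. coli array and -0.59 ± 0.32 on the early LPS array, each with spots of 1 sign.

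The elongation factors were 3. EEF1A1 had -0.15 ± 0.10 on the early E. coli array, -0.50 ± 0.09 on the early LPS array and -0.99 ± 0.15 on the time array, with 3 negative spots on each. At 4 h it had -0.50 ± 0.81 and at 8 h -0.10 ± 0.30, within the spread of its spots. EEF1A1 is the brightest member, and bright genes lay on the negative side on all 5 arrays. With the brightness trend removed it had 0.01, -0.18, -0.65, 0.21 and 0.47 on the 5 arrays in the order above. EEF2, which moves the ribosome by 1 codon, was at -1.64 ± 0.37 at 4 h, with its 5 spots between -2.26 and -1.35 and its clones at -1.76 ± 0.46 and -1.52 ± 0.22. It had -0.09 ± 0.27 on the early E. coli array, -0.06 ± 0.13 on the early LPS array, -0.56 ± 1.03 on the time array and 0.33 ± 0.89 at 8 h. The mean over both EEF2 clones was thus beyond its spot spread at 4 h alone. Its brighter clone by itself had -0.98 ± 0.27 on the time array and -0.28 ± 0.18 on the early E. coli array, with 3 negative spots on each. The dimmer clone had -0.13 ± 1.42 and 0.10 ± 0.20 there. EEF1B2, the exchange factor that recharges EEF1A1, had -0.32 ± 0.13 on the early E. coli array and -0.67 ± 0.20 at 4 h.

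Other genes of translation were taken from lists by pathway. Among all genes, the shares past 2-fold and positive were 14.7%, 3.78%, 14.8%, 17.7% and 15% on the 5 arrays in the order above, and the negative shares were 1.51%, 7.37%, 8.3%, 11.7% and 12.9%. Of 18 measured release, poly(A) and nascent chain factors (17 at 4 h), 3 were past 2-fold and positive on the early E. coli array and none negative, 1 and 0 on the early LPS array, 6 and 2 on the time array, 3 and 2 at 4 h and 2 and 1 at 8 h. Medians were -0.0035, 0.11, 0.08, -0.10 and 0.13. The negative genes on the time array were PABPC1, the poly(A)-binding protein, at -1.20 ± 0.28 over 9 spots and TPT1 at -1.15 ± 0.13. RACK1, a scaffold on the small subunit, had -0.33 ± 0.27 on the early E. coli array and -0.55 ± 0.22 on the time array, and the nascent chain factor BTF3 -0.55 ± 0.12 and 0.19 ± 0.11. ETF1, the release factor, had 1.13 ± 0.19 and 1.08 ± 0.32 on these arrays, on a clone in the dimmest 25%.

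The 11 measured genes of ribosome biogenesis had medians of 0.22, 0.12, 0.64, 0.23 and -0.10 on the 5 arrays, with 3, 0, 2, 2 and 1 past 2-fold on the positive side and 0, 1, 0, 2 and 1 on the negative side. Their median brightness percentile was 22.8, well below that of the ribosomal proteins at 72.6. NPM1, a nucleolar chaperone, had -0.26 ± 0.09 on the early E. coli array and NOP56, a guide RNA protein, -0.22 ± 0.19. The dim BYSL had 3.16 ± 0.94 and GNL3 1.31 ± 0.67. RIOK1, an assembly kinase and the brightest of the list, had -1.80 ± 0.26 at 4 h and -1.01 ± 0.28 at 8 h. Of 5 genes of TOR signalling, 1 was past 2-fold on the time array, 2 at 4 h, all positive, and 1 at 8 h, negative. Among these, SESN1 on the time array, RICTOR at 4 h and LAMTOR3 at 8 h had spots of both signs. MTOR itself had 0.47 ± 0.64 on the early E. coli array and 1.23 ± 0.69 at 4 h on a dim clone. The 4 measured genes of the stress response list were ATF4, CEBPB, HSPA5 and XBP1, and this list is not limited to genes that respond through eIF2. On each array 1 of them was past 2-fold, but not always the same gene. HSPA5 was positive on the early E. coli array, at 1.31 ± 0.46, and negative at 4 h, at -1.49 ± 0.43. CEBPB had -1.17 ± 0.20 at 8 h. ATF4, whose translation increases when EIF2S1 is phosphorylated, had -1.37 ± 0.13 on the early LPS array and -1.17 ± 0.27 on the time array. The 3 measured genes of the transfer RNA synthetase list had 2, 0, 2, 1 and 1 positive and 0, 0, 0, 1 and 0 negative past 2-fold.

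At LPS 2 h, 12 of 14 measured macrophage markers were brighter than the median gene, as were 1 of 2 T cell markers, 1 of 3 for B cells, 1 of 3 for heterophils, 1 of 3 for erythroid cells and the 1 for thrombocytes. The macrophage markers were thus present, and since brightness depends on the clone, levels of the lists cannot be ranked. The brighter erythroid gene was ALAS1, matched by a synonym in place of the listed ALAS2. CD72L1 and SH2D6 for B cells and CATH1 and S100A12 for heterophils were also matched by synonyms. The globin genes HBA1 and HBBA were below the median gene, at percentiles 9.76 and 38.2. CD3D, a chain of the T cell receptor complex, was bright at 5.40, with ratios of -2.70 ± 0.75 at 4 h and -4.01 ± 0.76 at 8 h. The other T cell marker, CD28, went the other way at 4 h, at 2.10 ± 2.49 with all spots positive. At 8 h CD28 had -0.49 ± 1.54, with spots of both signs. The part of other cells in the ratios above was not tested.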

How the data were processed

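Total RNA of 6 samples or pairs of samples was hybridised to spotted cDNA arrays, 1 array per comparison. The authors deposited 1 table of 14718 spots. For 5 arrays the deposited values were taken as log2 ratios (base assumed), and for LPS 2 h as linear intensity, with 204 values below 0. What is not given in the sources used here includes dyes, numerator, background correction and normalization, so scale, centring and direction are unknown. Deposited medians were 0.07 (early E. coli array), 0.29 (early LPS), 0.49 (time), -0.11 (4 h) and 0.12 (8 h). Genes came from the 9066 spots with 1 gene in the platform annotation of 2007, with 2228 of 2255 identifiers matched to RefSeq symbols (GRCg7b), and 5649 spots were unlisted.

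Each ratio array was centred on its median, and the gene value is the mean of its clone means. Named were members past 2-fold with at least 2 spots of 1 sign, the extremes of each group per array, and members with known roles, with some others added for comparison after their values were seen. EIF4E, EIF4EBP1, EIF2AK2, EIF6 and EEF2K were not analysed here. Members and lists were chosen with earlier results of these data known. The trend on brightness was a running median over 101 genes. The steps were tested on simulated data with planted changes and random noise. These held no brightness trend, clone differences or effect of spot order, so the trend removal was not tested against a trend. Python 3.11.15, numpy 2.4.6, pandas 2.3.3 and matplotlib 3.10.9 were used. The alternatives were no centring, removal of the trend, leaving out the dimmest 25% of genes, the median over spots, at least 3 spots, a threshold of 1.5-fold and centring of each of 3 parts of the spot order.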

Additional observations from a re-analysis of the deposited data

Results flagged for a closer look

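EIF2AK4 had opposite signs on the arrays of E. coli and LPS, -1.82 ± 1.63 at 4 h and 2.87 ± 1.26 at 8 h, past 2-fold on both with 3 spots of 1 sign each. The difference between the times was not tested, since each time had 1 array. Its clone was dim, with an intensity at percentile 2.53 of named genes.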

How the results depend on the processing

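Of the members named past 2-fold, 2 changed sign, both at 8 h with the median over spots, RPL22 to -0.94 and RPS3 to -0.0029, where single spots or clones set the mean. On the time array EIF5 came to -0.85 at the nearest to 0, and RPL22 at 4 h to -0.92, both under 2-fold. At a threshold of 1.5-fold in place of 2-fold, 13, 5, 29, 27 and 16 members were called on the early E. coli, early LPS, time, 4 h and 8 h arrays. Members past 2-fold numbered 14 on the time array without centring, 4 at 8 h with the median over spots, and 1 on each early array without the dimmest 25%. The shares of all genes at 1.5-fold, without centring and with the median over spots were not computed. These counts thus cannot be read as high or low for the members. Without centring, the early LPS medians were 0.28 for the members, 0.28 for the large subunit, 0.31 for the small, 0.27 for initiation, 0.23 for elongation, 0.41 for release and related factors and 0.14 for the stress response. Those of the time array were 0.46, 0.43, 0.68, 0.36 and -0.0616 for the first 5 sets, 1.14 for biogenesis, 1.81 for synthetases and 0.031 for the stress response. With the trend removed, the early E. coli medians were -0.0777 (large subunit), -0.20 (small subunit), 0.01 (elongation), 0.88 (synthetases) and 0.20 (TOR), the stress response had -0.0126 on the early LPS array and 0.18 at 4 h, and elongation had -0.28 on the time array and 0.42 at 8 h. Without the dimmest 25%, biogenesis had -0.26 on the early E. coli array and -0.20 on the time array, synthetases 1.00 and 0.30 there and -0.0445 at 8 h, and TOR -0.0887 on the early E. coli array. With at least 3 spots, synthetases had -0.32 on the early E. coli array, a change of sign with fewer genes read, and -0.0445 at 8 h. With the median over spots, TOR had 0.23 on the early E. coli array, and elongation had -0.85 and synthetases 0.73 on the time array. The r across members between 4 h and 8 h was 0.13, and 0.24 without the dimmest 25%, a check chosen after seeing the data, as was centring by parts of the spot order. The cause of these differences was not tested.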

Other observations

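The brighter RPS3 clone was set beside all other genes after its values were seen. The genes with the smallest distance to it over the 5 ratios were SLC16A1, a lactate carrier, at 0.94 and CLN8, a membrane protein of the endoplasmic reticulum, at 1.12, followed by the transcription factor KLF2 at 1.41. SLC16A1 had 2.07 on the early E. coli array, -2.34 on the early LPS array, -1.48 on the time array, 2.54 at 4 h and 0.57 at 8 h. No ribosomal protein was among the 5 nearest genes.

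Spot ratios differed along the table's spot order. Cut into 3 parts in that order, the spots had medians of -0.35, -0.02 and 0.39 at 8 h and of -0.28, -0.09 and 0.30 at 4 h, and each clone had a spot in every part. Centring each part on its own median lowered the median spot SD of ribosomal proteins from 0.17 to 0.08 on the early LPS array and from 0.38 to 0.27 at 8 h.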
